A study of Mus musculus with 4 samples.

Results

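Autophagy genes were described in MEL cells, a mouse erythroleukemia line blocked at an early erythroid stage, in 2 DMSO-induced and 2 uninduced samples. The members were fixed by symbol: 40 genes for the initiation, lipidation, LC3-type, cargo receptor and TFEB-type parts of the autophagy machinery. The list was chosen with earlier results of these data known. All 40 were found, in 41 of the 47935 rows of the expression table. The induced samples (replicates 1 and 2) came from cells grown with 1.5% dimethyl sulfoxide (DMSO), which starts erythroid-like differentiation, and the uninduced samples (replicates 1 and 2) from cells in the same complete medium. How long the cells were exposed is not given in the sources used here. Every sample was the same cell line, so all values describe a transformed leukemia line and not primary erythroblasts. Levels are in FPKM, a read density that is divided by transcript length and by library size, so that levels can be compared between genes.

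Autophagy encloses cytoplasm or organelles in a double membrane, the autophagosome, and delivers them to the lysosome. The ULK1 kinase complex starts the process, a class III PI3-kinase complex marks the membrane with the lipid PI3P, PI3P-binding and lipid transfer proteins expand it, and a ubiquitin-like conjugation system attaches ATG8 proteins (the LC3 and GABARAP families) to it. Cargo receptors bind ATG8 proteins and carry ubiquitinated proteins or organelles inside. Maturing red cells are known to use this route to clear mitochondria and other organelles.

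Of the 41 rows, 38 carried 1 symbol and covered 37 genes, since Ulk2 had 2 rows at the same position. The other 3 rows were shared between genes (Atg9a with Abcb6 and Gm29253, Nbr1 with Gm27456, and Pink1 with Gm27646 and Mir7019) and were left out of counts and medians. All 41 rows passed the filter of at least 1 FPKM in at least 2 samples. Atg14 passed through its induced values alone and Atg10 through its uninduced values alone, so those rows had to differ to be tested. FPKM summed to 1246536 and 1100517 in induced replicates 1 and 2 and to 1055861 and 1325806 in uninduced replicates 1 and 2, and depth is not given in the sources used here. Red cell identity was checked with 11 erythroid markers, all at 1 FPKM or more in some sample. Their FPKM summed to 59682 and 113769 in the induced and 1451 and 1742 in the uninduced samples. Most of the induced sum was Hba-a1 (40300.5 and 67689) and Hbb-bs (15800 and 39767). Slc4a1 stood at 0.49 and 0.56 FPKM in the uninduced samples. Gata1 and Epor did not pass (limma adjusted p = 0.138 and 0.203). Summed macrophage markers measured 2.43 and 1.51 FPKM in the induced and 13.4 and 25.3 FPKM in the uninduced samples. Cd68 and Fcgr1 were the only markers of 6 to reach 1 FPKM in any sample. The defining marker Adgre1 was at 0.02 FPKM in each induced sample and at 0 in the uninduced samples. Which cells express Cd68 and Fcgr1, and their part in the results, was not tested. No lymphocyte or fibroblast marker reached 1 FPKM in any sample. In bulk RNA, a change in the share of cells that express a gene and a change of its RNA per cell cannot be told apart.

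Autophagy transcripts were mostly higher in induced cells, with rises among 7 of the 10 roles. In several of these roles the rise was 1 row of 4 to 6, while 11.5% of all loci were called higher. The median log2 fold change was highest in the ATG8 genes, at 1.18, with the soluble cargo receptors close to it at 1.08. Of the 38 single-symbol rows, 11 rose, 1 fell and 26 did not pass (limma-trend on log2(FPKM + 1), Benjamini-Hochberg adjusted p under 0.05 over 12890 loci). The 11 rows were 28.9% of the members, against 11.5% of all loci tested that were called higher. Since members and lists were chosen with earlier results of these data known, such shares beside all loci are a description and not a test. The fallen row was 2.63% of the members, against 14.7% of all loci called lower. The median log2 fold change was 0.51 over the members and 0.03 over all loci, and the estimate was positive in 84.2% of member rows and 51.2% of all loci. Induced values lay above uninduced values without overlap for 24 of 38 rows (63.2%, against 36.1% of all loci), below them for 3, and overlapped for 11. Below-uninduced values without overlap were seen in 34.7% of all loci. With Ulk2 left out, 10 of 36 rows rose. Among the 36 rows at 1 FPKM or more in every sample, which leave out Atg10 and Atg14, 11 rose and 0 fell by limma (1 lower at an unadjusted p under 0.05). The 3 shared rows also rose.

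Fewer members were called with 1 sample left out. On the same 12890 loci, the number of members called higher was 0 without uninduced replicate 1, 0 without uninduced replicate 2, 1 (Gabarap) without induced replicate 1 and 0 without induced replicate 2, by limma. At an unadjusted p under 0.05 the same fits gave 14, 12, 11 and 8 members higher, against 2488, 1920, 1820 and 1438 of all 12890 loci. The groups of the 12 called rows do not overlap, so leaving out a sample could not turn their direction. With the filter reapplied to the 3 samples left, an alternative chosen after seeing the data, the members' median log2 fold change stayed positive. In the same order it was 0.61, 0.42, 0.56 and 0.35, against 0.10, 0.02, 0.01 and -0.03 over all loci. Over the whole table the fits on the same loci called 30, 14, 486 and 67 loci in either direction. Nothing in the labels ties the replicates to separate cultures, and the p-values therefore cover only the spread among these 4 samples, possibly technical. Fold changes are differences of mean log2(FPKM + 1) with their SE; the added 1 shrinks the change of low genes. Means are given with SD over n = 2 samples.

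**Figure D1:**
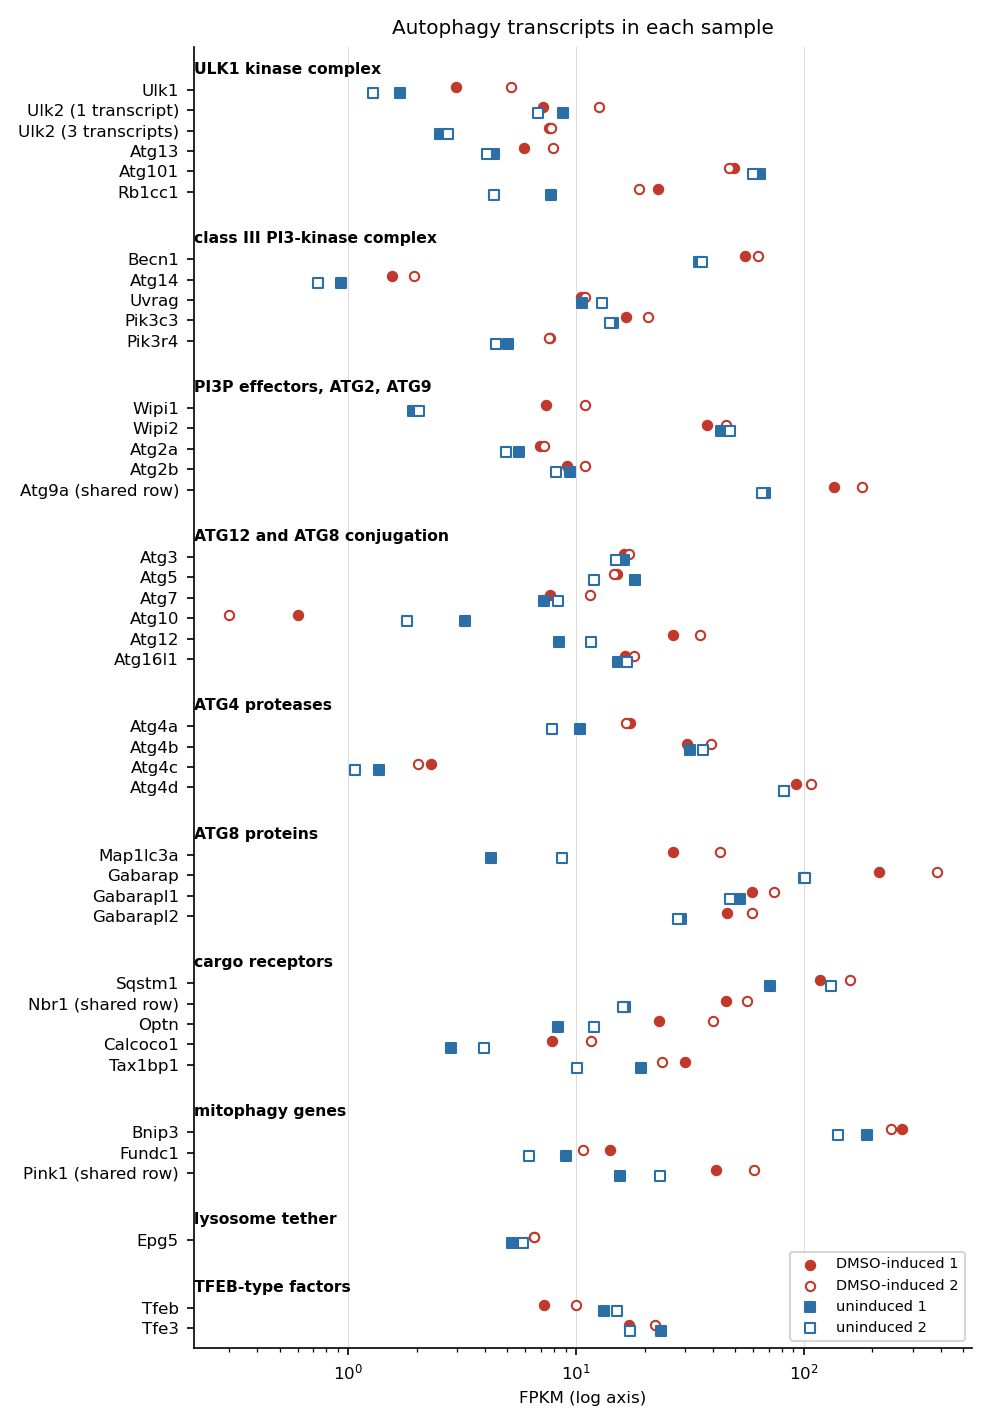
FPKM on a log axis for all 41 rows, grouped by role, with a point for each of the 2 DMSO-induced samples (circles) and the 2 uninduced samples (squares). Rows marked as shared also count other genes. For 24 of the 38 single-symbol rows both induced points lie to the right of both uninduced points.

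**Figure D2:**
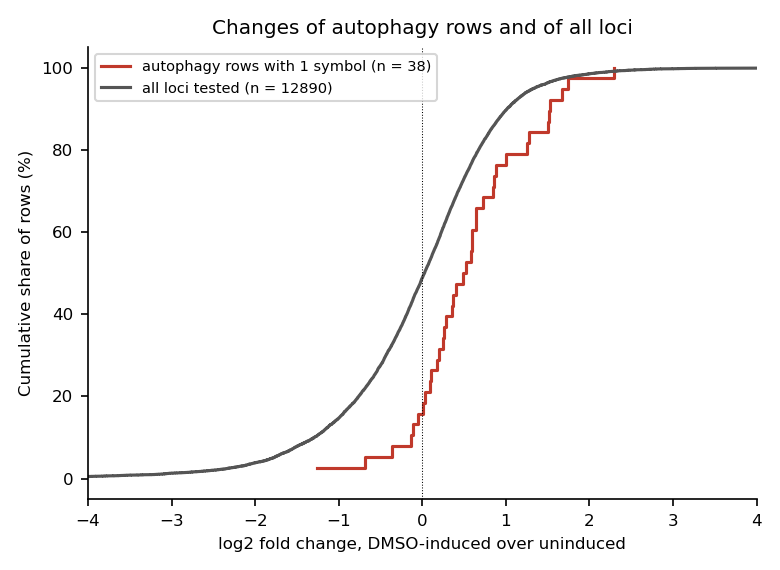
Cumulative share of rows (vertical axis, %) by log2 fold change, DMSO-induced over uninduced (horizontal axis), for the 38 single-symbol autophagy rows and for all 12890 loci tested. The medians are 0.51 for the autophagy rows and 0.03 for all loci, and the autophagy curve lies to the right over most of its length.

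Start regions of the members were searched for short motifs, since TFEB-type factors bind E-boxes, GATA factors lead erythroid transcription and FOXO factors are known regulators of autophagy genes. RefSeq start windows (GRCm38.p6, 250 bases before to 50 after the start) were at hand for 33 of the 40 genes, in 40 windows. Of the 33, 10 were genes with a row that rose, and here a shared row was enough to count. The 4 windows given here are that of Gabarap, a risen ATG8 gene with no match, and 3 with a match. Atg4a has 2 windows, and the one given is at an upstream start, while the window at its annotated gene start (chrX:140956657-140956956) holds no match; capitals mark CACGTG or AGATAA on either strand.
Gabarap (chr11:69991120-69991419, + strand): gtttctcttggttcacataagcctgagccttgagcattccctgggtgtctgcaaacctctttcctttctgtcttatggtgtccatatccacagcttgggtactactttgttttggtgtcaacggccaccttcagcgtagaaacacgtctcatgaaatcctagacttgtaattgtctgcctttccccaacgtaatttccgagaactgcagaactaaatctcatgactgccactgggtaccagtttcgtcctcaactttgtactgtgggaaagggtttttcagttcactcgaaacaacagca
Atg4a (chrX:140953595-140953894, + strand): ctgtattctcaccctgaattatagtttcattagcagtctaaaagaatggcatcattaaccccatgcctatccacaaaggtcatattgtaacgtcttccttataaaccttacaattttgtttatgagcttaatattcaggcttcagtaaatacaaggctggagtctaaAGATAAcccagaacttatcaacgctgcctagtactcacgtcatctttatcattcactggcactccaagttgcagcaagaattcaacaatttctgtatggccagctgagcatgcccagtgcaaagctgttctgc
Atg7 (chr6:114670846-114671145, + strand): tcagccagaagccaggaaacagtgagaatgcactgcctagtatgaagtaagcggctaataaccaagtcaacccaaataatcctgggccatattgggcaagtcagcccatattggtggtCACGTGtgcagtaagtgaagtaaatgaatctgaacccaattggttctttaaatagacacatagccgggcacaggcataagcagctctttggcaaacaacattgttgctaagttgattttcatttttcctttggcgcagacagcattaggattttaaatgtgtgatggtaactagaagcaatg
Atg14 (chr14:47568385-47568684, - strand): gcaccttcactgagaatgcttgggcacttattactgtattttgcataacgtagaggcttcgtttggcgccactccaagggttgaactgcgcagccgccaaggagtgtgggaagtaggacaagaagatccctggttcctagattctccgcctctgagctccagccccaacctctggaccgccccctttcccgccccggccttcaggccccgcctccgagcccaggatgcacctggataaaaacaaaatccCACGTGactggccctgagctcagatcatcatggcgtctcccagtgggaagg

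The E-box CACGTG, searched on both strands, was found in 5 of the 40 member windows (12.5%), against 7.15% of all 32851 windows. It stood in the windows of Atg3, Atg5, Atg7, Atg14 and Bnip3. The longer form GTCACGTG, which contains it and resembles the element bound by TFEB, was found in 3 member windows (7.5%, against 2.25% of all windows), those of Atg3, Atg7 and Atg14. None of the 5 genes passed the expression test, and none of the 10 genes with a window and a risen row, shared or not, had either motif. Counted from the RefSeq start of its window, the E-box began 132 bases before it for Atg7 and at the last base before it for Atg14. Neither is the annotated gene start, which lies upstream at 114643097 (Atg7, + strand) and at 47570649 (Atg14, - strand). Both windows lie inside the annotated genes. The GATA motif AGATAA was found in the windows of Atg4a, which rose, and Atg4d, which did not pass (5% of member windows, against 11.2% of all windows), and began 83 bases before the upstream Atg4a start. The other Atg4a window, at the annotated gene start, did not hold it. The FOXO motif GTAAACA was found in no member window, against 3.65% of all windows. These matches describe letters in these windows and are not binding sites.

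In the ULK1 complex, which starts autophagosome formation, the scaffold gene Rb1cc1 and a row of the kinase gene Ulk2 rose. Rb1cc1 (chromosome 1, 6206197 to 6276648), which encodes the scaffold FIP200, measured 22.9 and 18.9 FPKM in the induced samples, against 7.75 and 4.35 FPKM in the uninduced samples. Its groups did not overlap, and the log2 fold change was 1.67 ± 0.30 (limma adjusted p = 0.0223). The antisense gene 4732440D04Rik, whose exons overlap those of Rb1cc1 by up to 313 bases, moved with it, at 30.3 and 26.4 FPKM in the induced and 7.88 and 10.3 FPKM in the uninduced samples. The strand setting of the counting is not known, so reads of these genes cannot be told apart.

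Ulk2 (chromosome 11, 61775649 to 61855073), a kinase related to ULK1, was split over a row that holds its 3 annotated transcripts and a row that refers to 1 of them. The row with 3 transcripts measured 7.61 and 7.74 FPKM in the induced and 2.54 and 2.74 FPKM in the uninduced samples (log2 fold change 1.25 ± 0.20, limma adjusted p = 0.0186). The other row measured 7.14 and 12.6 FPKM in the induced and 8.78 and 6.84 FPKM in the uninduced samples, with overlapping groups (0.26 ± 0.32, limma adjusted p = 0.559). By locus number, the row with 3 transcripts stands among minus-strand loci of chromosome 11, the strand of Ulk2. The other row stands among plus-strand loci, and what it counts was not tested. How reads were divided between the rows is not known, so the rise of Ulk2 is uncertain. Ulk1, the kinase that gives the complex its name, was the uncalled member nearest to the threshold, at 2.97 and 5.16 FPKM in the induced and 1.68 and 1.28 FPKM in the uninduced samples (1.00 ± 0.29, limma adjusted p = 0.06). The most abundant gene of the complex was Atg101, which encodes a stabilizing subunit, at 49.2 and 46.9 FPKM in the induced and 64.2 and 59.9 FPKM in the uninduced samples. It was lower in both induced samples but did not pass (-0.36 ± 0.18, limma adjusted p = 0.186). Atg13, the regulatory subunit, averaged 6.91 ± 1.42 FPKM in induced and 4.22 ± 0.21 FPKM in uninduced cells and did not pass.

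Of the class III PI3-kinase complex, 1 of 5 genes rose (20%, against 11.5% of all loci). Becn1 (chromosome 11, 101285952 to 101302286), the Beclin 1 subunit shared by the autophagy and endosome forms of the complex, measured 55.2 and 62.9 FPKM in the induced samples, against 34.5 and 35.8 FPKM in the uninduced samples. It was the most abundant gene of the complex, its groups did not overlap, and the log2 fold change was 0.73 ± 0.19 (limma adjusted p = 0.0451). Exons of Becn1 overlap those of Cntd1, which stayed at or under 0.19 FPKM in all samples. Becn1 missed the threshold when samples were scaled to the sum without globins and the 10 most abundant loci. The catalytic lipid kinase Pik3c3 and its anchoring subunit Pik3r4 had log2 fold changes of 0.35 and 0.59 and did not pass. Atg14, the subunit specific to autophagy, stood at 1.55 and 1.94 FPKM in the induced and 0.93 and 0.74 FPKM in the uninduced samples (0.58 ± 0.21, limma adjusted p = 0.0967). Uvrag, the subunit of the endosomal form, had overlapping groups, with 10.6 and 10.98 FPKM in the induced and 10.6 and 13.0 FPKM in the uninduced samples.

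Among genes that act on the PI3P-marked membrane, Wipi1 stood apart from its paralog Wipi2. WIPI proteins bind PI3P. Wipi1 (chromosome 11, 109573331 to 109611967) measured 7.37 and 10.9 FPKM in the induced samples, against 1.92 and 2.04 FPKM in the uninduced samples, and the difference was 1.74 ± 0.26 on the log2 scale (limma adjusted p = 0.0165). It had the lowest adjusted p of the single-symbol members. Wipi2 was far more abundant and its groups overlapped, with 37.4 and 45.5 FPKM in the induced and 43.4 and 47.3 FPKM in the uninduced samples (-0.13 ± 0.20), a sign that turned under quantile scaling (0.05). The ratio of Wipi1 to Wipi2 FPKM within a sample was 0.197 and 0.24 in the induced and 0.0443 and 0.0431 in the uninduced samples, so Wipi2 remained the more abundant paralog in all 4 samples.

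The lipid transfer genes Atg2a and Atg2b, which feed lipids to the growing membrane, did not pass, with log2 fold changes of 0.37 and 0.17. Exons of Atg2b overlap those of Gskip, which rose (1.27 ± 0.20, limma adjusted p = 0.0184). Atg9a encodes the lipid scramblase that seeds that membrane. Its row, shared with the porphyrin transporter gene Abcb6, measured 136 and 180 FPKM in the induced and 67.4 and 65.6 FPKM in the uninduced samples (1.22 ± 0.22, limma adjusted p = 0.0218). The part of Atg9a in that rise cannot be read from the row.

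**Figure D3:**
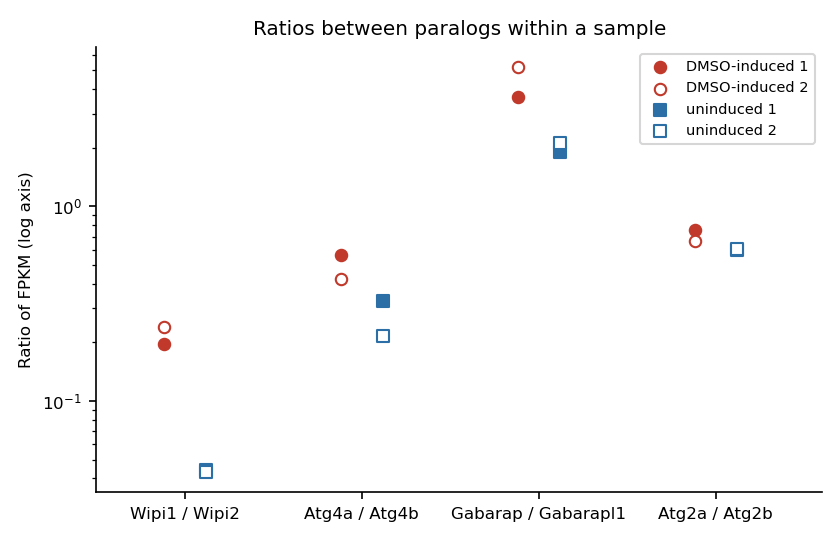
Ratio of FPKM between paralogs within each sample (log axis) for 4 pairs, chosen after their values were seen, with DMSO-induced samples as circles and uninduced samples as squares. The ratio of Wipi1 to Wipi2 is 0.197 and 0.24 in the induced samples and 0.0443 and 0.0431 in the uninduced samples.

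The 6 conjugation genes gave 1 rise and 1 fall (16.7% each, against 11.5% higher and 14.7% lower of all loci). The fall was that of Atg10, which was tested only through its uninduced values. Atg12, the ubiquitin-like protein that is joined to ATG5, measured 26.6 and 35.1 FPKM in the induced samples, against 8.42 and 11.6 FPKM in the uninduced samples (log2 fold change 1.53 ± 0.26, limma adjusted p = 0.0198). Its partner Atg5, whose sign turned under median-of-ratios scaling, measured 15.1 and 14.7 FPKM in the induced and 18.1 and 11.95 FPKM in the uninduced samples, with overlapping groups. The ratio of Atg12 to Atg5 FPKM was 1.76 and 2.39 in the induced and 0.465 and 0.973 in the uninduced samples, and did not overlap.

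Atg10 (chromosome 13, 90935356 to 91223968), the E2-like enzyme that attaches ATG12 to ATG5, fell to 0.60 and 0.30 FPKM in the induced samples, against 3.25 and 1.82 FPKM in the uninduced samples. The log2 fold change was -1.26 ± 0.28 (limma adjusted p = 0.0338), and with a pseudocount of 0.1 it was -2.26. With a filter at 5 FPKM it was not tested. The remaining genes differed little between groups: Atg3, the E2-like enzyme for ATG8 proteins, Atg7, the shared E1-like enzyme, and Atg16l1, which directs the conjugate to the membrane, had log2 fold changes of 0.09, 0.25 and 0.10. The most abundant of these 3 in induced cells was Atg16l1, at 16.4 and 17.9 FPKM in the induced and 15.3 and 16.7 FPKM in the uninduced samples.

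ATG4 proteases trim ATG8 proteins before conjugation and release them afterwards, and 1 of the 4 genes rose (25%, against 11.5% of all loci). Atg4a (chromosome X, 140956907 to 141164270) measured 17.3 and 16.5 FPKM in the induced samples, against 10.4 and 7.81 FPKM in the uninduced samples (log2 fold change 0.84 ± 0.22). Its limma adjusted p of 0.0495 was the called value nearest to the threshold, and it did not pass with a pseudocount of 0.1 or with scaling to the sum without globins and the 10 most abundant loci. The near-identical copy Atg4a-ps (99.3% identity over 2115 bases) stood at 1.14 and 0.89 FPKM in the induced and 0.56 and 0.35 FPKM in the uninduced samples, so reads could be divided between the copies. Atg4b, the protease with the broadest known activity, had overlapping groups (0.03 ± 0.21) and a sign that turned under median-of-ratios scaling. Atg4d was the most abundant, at 92.4 and 108 FPKM in the induced and 81.9 and 82.0 FPKM in the uninduced samples (0.28 ± 0.19, limma adjusted p = 0.311). Its exons overlap by 792 bases those of Kri1 on the opposite strand, which moved the other way (-0.85 ± 0.18, limma adjusted p = 0.0299). Atg4c stayed under 3 FPKM in all 4 samples.

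ATG8 proteins coat the autophagosome and hold its cargo receptors, and 3 of the 4 genes rose (75%, against 11.5% of all loci). Gabarap (chromosome 11, 69991143 to 69994951) measured 214 and 382 FPKM in the induced samples, against 100 and 101 FPKM in the uninduced samples. The induced replicates stood far apart and both lay above the uninduced ones (log2 fold change 1.50 ± 0.32, limma adjusted p = 0.0305). Map1lc3a (chromosome 2, 155276297 to 155278073), an LC3 gene, had the largest fold of the single-symbol members, with 26.6 and 42.9 FPKM in the induced and 4.25 and 8.68 FPKM in the uninduced samples (2.29 ± 0.39, limma adjusted p = 0.0204). Gabarapl2 (chromosome 8, 111940703 to 111953612), which encodes GATE-16, measured 46.0 and 59.0 FPKM in the induced and 28.8 and 27.9 FPKM in the uninduced samples (0.86 ± 0.21, limma adjusted p = 0.0409). Its processed pseudogenes are near-identical over 349 to 352 bases, so its value is less certain. Gabarapl1 did not pass, although its groups did not overlap, at 58.9 and 73.7 FPKM in the induced and 52.6 and 47.3 FPKM in the uninduced samples (0.40 ± 0.21, limma adjusted p = 0.205).

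The make-up of the ATG8 transcripts also differed between groups. The 4 genes summed to 346 and 558 FPKM in the induced and 186 and 185 FPKM in the uninduced samples. Gabarap made up 62% and 68.5% of that sum in the induced and 53.9% and 54.6% in the uninduced samples. Gabarapl1 made up 17% and 13.2% in the induced and 28.3% and 25.6% in the uninduced samples, and Map1lc3a 7.70% and 7.69% in the induced and 2.29% and 4.70% in the uninduced samples. Gabarapl2 took 13.3% and 10.6% in the induced and 15.5% and 15.1% in the uninduced samples. By mean level the order was Gabarap, Gabarapl1, Gabarapl2 and Map1lc3a in both groups. Gabarapl1 and Gabarapl2 overlapped in the induced samples and not in the uninduced ones. No row was found under the symbol Map1lc3b, so the shares are of these 4 genes alone.

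**Figure D4:**
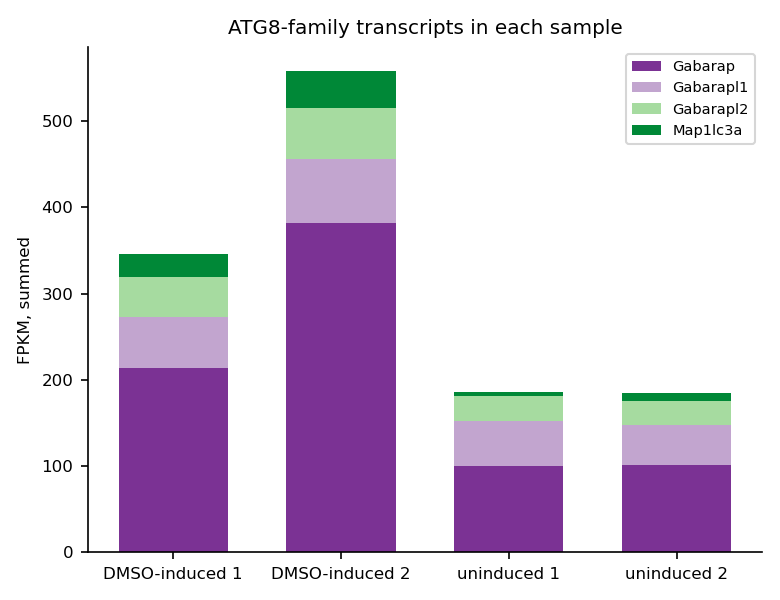
FPKM of the 4 ATG8-family genes, stacked for each of the 2 DMSO-induced and 2 uninduced samples. The bars reach 346 and 558 FPKM in the induced samples and 186 and 185 FPKM in the uninduced samples, with Gabarap the largest part of every bar.

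Among the ubiquitin-binding and other soluble cargo receptors, Optn and Calcoco1 rose and the most abundant of them, Sqstm1, did not pass. Optn (chromosome 2, 5020642 to 5064051) encodes optineurin, a ubiquitin-binding receptor with a known part in mitophagy. It measured 23.1 and 40.1 FPKM in the induced samples, against 8.30 and 11.97 FPKM in the uninduced samples (log2 fold change 1.52 ± 0.34, limma adjusted p = 0.0335). Calcoco1 (chromosome 15, 102706777 to 102722178), a receptor for endoplasmic reticulum and Golgi membranes, measured 7.84 and 11.7 FPKM in the induced and 2.84 and 3.96 FPKM in the uninduced samples (1.28 ± 0.28, limma adjusted p = 0.0326). Neither gene's groups overlapped.

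Sqstm1, the receptor also known as p62, measured 118 and 159 FPKM in the induced and 70.8 and 132 FPKM in the uninduced samples. The uninduced replicates stood far apart and the groups overlapped (0.49 ± 0.36, limma adjusted p = 0.339). Tax1bp1, a ubiquitin-binding receptor for aggregates, measured 29.95 and 23.7 FPKM in the induced and 19.3 and 10.1 FPKM in the uninduced samples, again with uneven uninduced replicates (0.88 ± 0.34, limma adjusted p = 0.116). It passed with the replicate block (adjusted p = 0.0465, in a range of 0.0465 to 0.635 over the scaling, filter, pseudocount and block alternatives), and with the filter reapplied without uninduced replicate 1 (adjusted p = 0.0254). The row of Nbr1, a receptor that cooperates with p62, held 45.3 and 56.5 FPKM in the induced and 16.4 and 16.1 FPKM in the uninduced samples (1.58 ± 0.20, limma adjusted p = 0.014). The row also counts Gm27456.

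The mitophagy genes Bnip3 and Fundc1, whose proteins sit in the outer mitochondrial membrane and bind ATG8 proteins, did not pass. Bnip3 was the most abundant member in uninduced cells, with 269 and 241 FPKM in the induced and 190 and 141 FPKM in the uninduced samples. Its groups did not overlap (0.64 ± 0.24, limma adjusted p = 0.105), and it passed under quantile scaling (adjusted p = 0.0442, in a range of 0.0442 to 0.426 over the scaling, filter, pseudocount and block alternatives). Its near-identical pseudogene Gm16439 (98.9% identity over 564 bases) stood at 17.6 and 19.2 FPKM in the induced and 11.97 and 10.8 FPKM in the uninduced samples, so reads could be divided between them. Fundc1 measured 14.1 and 10.7 FPKM in the induced and 9.04 and 6.19 FPKM in the uninduced samples (0.64 ± 0.27, limma adjusted p = 0.133). The row of Pink1, the kinase that marks damaged mitochondria, held 41.2 and 60.5 FPKM in the induced and 15.5 and 23.3 FPKM in the uninduced samples (1.35 ± 0.30, limma adjusted p = 0.0338), in a row shared with Gm27646 and Mir7019. Epg5, a tether between autophagosome and lysosome, stood at 6.55 FPKM in each induced sample and at 5.25 and 5.87 FPKM in the uninduced samples (0.20 ± 0.20).

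TFEB and TFE3 are the transcription factors that are known to activate autophagy and lysosome genes, and neither passed. Tfeb measured 7.21 and 9.98 FPKM in the induced and 13.3 and 15.2 FPKM in the uninduced samples. Both induced values lay below both uninduced values (-0.68 ± 0.24, limma adjusted p = 0.0924). Tfe3, the more abundant factor, overlapped between groups, at 17.1 and 22.2 FPKM in the induced and 23.6 and 17.3 FPKM in the uninduced samples (-0.05 ± 0.25), with a sign that turned under 2 of the 3 other scalings. These are transcript levels, while both factors are known to be controlled mainly by phosphorylation and nuclear entry.

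**Figure D5:**
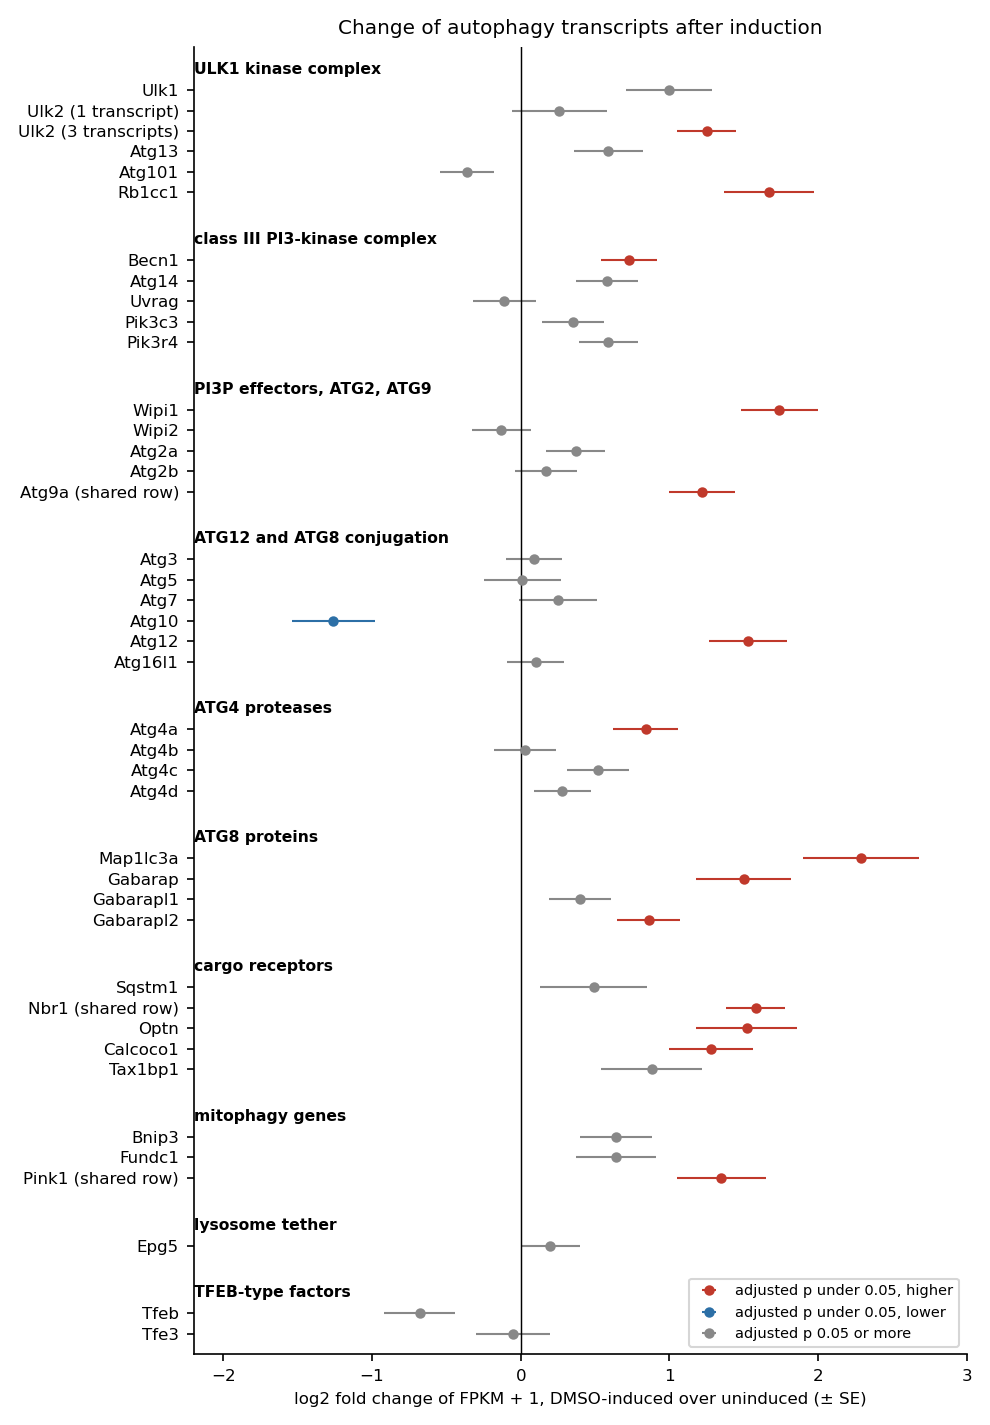
Log2 fold change of FPKM + 1, DMSO-induced over uninduced, ± SE from limma for all 41 rows, grouped by role. Red marks an adjusted p under 0.05 and higher, blue under 0.05 and lower (Atg10), and grey the rest; Map1lc3a has the largest fold, at 2.29.

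Levels spread widely over the 38 single-symbol rows. In induced cells the mean ran from 0.45 FPKM for Atg10 to 298 FPKM for Gabarap, with 7 of 38 rows at 50 FPKM or more and 4 under 5 FPKM. In uninduced cells it ran from 0.835 FPKM for Atg14 to 166 FPKM for Bnip3, with 5 rows at 50 FPKM or more and 9 under 5 FPKM. The 4 most abundant were Gabarap, Bnip3, Sqstm1 and Atg4d in both groups, and the median member stood at 16.8 FPKM in induced and 10.1 FPKM in uninduced cells. Map1lc3a moved up the order most of the called genes named here, to place 11 in induced cells, against place 26 in uninduced cells. For each row, length was taken as the median over its matched reference transcripts, short ones included. For Rb1cc1 it was 1024 bases over 16 transcripts, while an annotated Rb1cc1 transcript has 7607 bases. The median of these lengths was 1024 bases for risen rows (range 696 to 4765). It was 2210 bases for rows that were not called (446 to 9660), so shorter RNAs cannot be read from it. Across the 38 rows the Spearman correlation of log2 fold change with median transcript length was -0.23 and with uninduced FPKM -0.28. These correlations are over rows that share libraries and are given as a description.

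Most member rows and most erythroid markers were higher in induced replicate 2 than in induced replicate 1. Of the 38 rows, 27 (71.1%) were higher in induced replicate 2 than in induced replicate 1, against 52.9% of all loci. Of the 11 erythroid markers 10 were higher in induced replicate 2, while Tfrc was lower (542 and 469 FPKM in induced replicates 1 and 2). With only 2 induced samples, a link between members and markers cannot be shown. Between the uninduced samples, 17 of 38 rows (44.7%) were higher in replicate 2, against 43% of all loci. The part of this replicate difference in the rises was not tested.

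Beyond the members, 70 genes of 4 other lists were looked up in the same fit. Of these, 56 had a single-symbol row that could be tested and 6 a shared row. A further 7 were too low, and no row was found under the symbol Map1lc3b. Of the 56, 9 rose (16.1%, against 11.5% of all loci) and 2 fell (3.57%, against 14.7%). Their median log2 fold change was 0.25.

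Genes for fusion of the autophagosome with the lysosome rose in 3 of 12 (25%, against 11.5% of all loci). None fell, against 14.7% of all loci (1 was lower at an unadjusted p under 0.05). Stx17, the SNARE of the completed autophagosome, measured 13.9 and 17.1 FPKM in the induced and 4.65 and 4.17 FPKM in the uninduced samples (log2 fold change 1.60 ± 0.22, limma adjusted p = 0.0147). Its SNARE partner Snap29 measured 13.4 and 20 FPKM in the induced and 5.29 and 4.47 FPKM in the uninduced samples (1.57 ± 0.27, limma adjusted p = 0.02). The lysosomal SNARE of the same complex, Vamp8, was lower in both induced samples, at 59.8 and 71.8 FPKM, against 140 and 97.8 FPKM in the uninduced samples, and did not pass (-0.83 ± 0.25, limma adjusted p = 0.0684). The risen member left to name is the HOPS tethering subunit Vps41 (1.14 ± 0.26). Vamp8 and Vps41 were named after their values were seen.

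Other selective receptors rose in 3 of 11 (27.3%, against 11.5% of all loci). None fell, against 14.7% of all loci (1 was lower at an unadjusted p under 0.05). Bnip3l, which encodes NIX, the receptor known to clear mitochondria from reticulocytes, measured 196 and 193 FPKM in the induced and 108 and 72.9 FPKM in the uninduced samples (1.12 ± 0.25, limma adjusted p = 0.0343). Ncoa4, the ferritin receptor, measured 102 and 117 FPKM in the induced and 51.9 and 55.2 FPKM in the uninduced samples (1.02 ± 0.19, limma adjusted p = 0.0232). The third was Atl3, a receptor for tubular endoplasmic reticulum (0.77 ± 0.19, limma adjusted p = 0.044), named after its value was seen. The row of Phb2, an inner mitochondrial membrane protein known as a mitophagy receptor, is shared with Gm23547 and stands outside these counts. It fell, at 149 and 155 FPKM in the induced and 336 and 377 FPKM in the uninduced samples (-1.22 ± 0.20, limma adjusted p = 0.019).

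Other autophagosome formation genes rose in 0 of 9 by limma, against 11.5% of all loci (2 were higher at an unadjusted p under 0.05). They fell in 2 of 9 (22.2%, against 14.7% of all loci). Atg9b, the paralog of Atg9a, measured 2.48 and 1.83 FPKM in the induced and 12.03 and 14.2 FPKM in the uninduced samples (-2.17 ± 0.23, limma adjusted p = 0.0126). Wdr45b, which encodes the PI3P-binding protein WIPI3, measured 10.7 and 11.9 FPKM in the induced and 19.7 and 18.9 FPKM in the uninduced samples (-0.72 ± 0.19, limma adjusted p = 0.0486). Wdr45b did not pass with a pseudocount of 0.1 (adjusted p = 0.0502) or with scaling to the sum without globins and the 10 most abundant loci (0.0901), in a range of 0.0367 to 0.159 over the scaling, filter, pseudocount and block alternatives.

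Of 24 genes for mTORC1, AMPK and other upstream control, 3 rose (12.5%, near the 11.5% of all loci). None fell, against 14.7% of all loci (1 was lower at an unadjusted p under 0.05). Foxo3, a transcription factor known to act on autophagy genes, measured 93.5 and 129 FPKM in the induced and 23.1 and 19.8 FPKM in the uninduced samples (2.30 ± 0.24, limma adjusted p = 0.0115). Prkab2, a regulatory subunit of the energy sensor AMPK, measured 7.71 and 9.27 FPKM in the induced and 2.44 and 2.60 FPKM in the uninduced samples (1.43 ± 0.21, limma adjusted p = 0.017). The folliculin partner Fnip1 was the other risen gene (1.13 ± 0.25), named after its value was seen. Mtor, the kinase that holds autophagy in check, did not pass, at 13.8 and 14.1 FPKM in the induced and 17.3 FPKM in each uninduced sample (-0.29 ± 0.18, limma adjusted p = 0.28). The row of Akt1s1, which encodes the mTORC1 inhibitor PRAS40, is shared with Mir707 and stands outside these counts. It fell, at 14.3 and 13.7 FPKM in the induced and 33.4 and 38.4 FPKM in the uninduced samples (-1.30 ± 0.19, limma adjusted p = 0.0166). Phb2 and Akt1s1 were named after their values were seen; the other 4 shared rows of these lists did not pass.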

How the data were processed

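RNA-seq values of 4 samples were used, 2 DMSO-induced and 2 uninduced, grouped by the sample titles. Per the labels' protocols, ribosomal RNA was depleted before library preparation. TopHat2 and the GRCm38 build are named in the processing, per the submitters' processing notes, while quantifier, annotation, strand setting and depth are not given in the sources used here. For each sample the authors deposited an FPKM column, a unit read from headers of the Cufflinks type and from the values. A few very abundant transcripts can lower the FPKM of all others, which the scaling alternatives address.

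Rows that reached 1 FPKM in 2 or more samples were tested on log2(FPKM + 1) with limma 3.58.1 (lmFit, eBayes with trend) in R 4.3.3, with no term but group, and p-values were adjusted by Benjamini-Hochberg over 12890 loci. Alternatives changed the scaling, filter, pseudocount (0.1), replicate block or left out a sample; reapplying the filter after leaving out a sample was added after seeing the data. Members and lists were chosen with earlier results of these data known. Values are given for called members, preset genes and the most abundant of each role. From each other list, the called genes with the 2 largest changes in each direction were named, with Bnip3l, Ncoa4, Mtor and Foxo3. Positions are from GENCODE M21 (GRCm38). Copies were sought with blastn 2.17.0 (at least 95% identity over 300 bases).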

Additional observations from a re-analysis of the deposited data

How the results depend on the processing

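All 12 called member rows kept their direction under the 3 other scalings; their groups do not overlap, so the other alternatives could not turn it. The count of 11 members higher was 9 to 12 under the 3 other scalings, the filter at 5 FPKM, a pseudocount of 0.1 and the replicate block. Without a filter, limma called 0 members higher and 0 lower (16 and 2 at an unadjusted p under 0.05), 0 and 0 genes of the other lists (15 and 6), and 87 loci higher and 133 lower in all; 47935 rows were then tested. The 1 member called lower, Atg10, was not tested at the 5 FPKM filter, which left 0. In the other lists, where 2 genes were called lower, Wdr45b was lost and the count was 1 with a pseudocount of 0.1 and 1 with scaling to the sum without globins and the 10 most abundant loci. Leaving out a sample gave 0 to 1 members higher and 0 lower on the same loci, against 0 to 8 higher and 0 lower with the filter reapplied. Over both ways, 0 to 1358 loci were higher and 14 to 1327 lower, the members' median ran from 0.35 to 0.61, and the other lists gave 0 to 9 higher and 0 to 2 lower. The cause was not tested. Of 41 member rows, 7 changed sign somewhere, none of them called. Wipi2 was 0.05 under quantile scaling. Atg5 was -0.03 and Atg4b -0.01 under median-of-ratios scaling. Tfe3 was 0.01 under quantile scaling and under scaling without globins. When a sample was left out, the 1-transcript row of Ulk2 ran from -0.11 to 0.63, Uvrag from -0.25 to 0.02, Wipi2 from -0.27 to 0.01, Atg5 from -0.27 to 0.30, Atg7 from -0.01 to 0.51, Atg4b from -0.14 to 0.20 and Tfe3 from -0.27 to 0.16. With replicate number as a replicate block, 12 members were higher (Tax1bp1 added) and 1 lower; nothing in the labels ties same-numbered samples, whose deviations from their group means correlated at 0.17. Depth behind each value is unknown, so rows of a few FPKM are the least certain.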
